A study of Mus musculus with 4 samples.

Results

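Genes named Atp followed by a digit encode the ATP-driven ion and lipid pumps of the cell and the subunits of the mitochondrial ATP synthase. Their neighbourhoods were searched for binding sites of MIXL1, a paired-type homeodomain transcription factor of the primitive streak. The RefSeq gene table listed 79 such protein-coding genes on chromosomes 1 to 19, among 20560 protein-coding genes there. By symbol, 35 were P-type pumps (Atp1, Atp2 and Atp7 to Atp13), 17 belonged to the ATP synthase (Atp5) and 24 to the proton pump (Atp6). The other 3, Atp4a, Atp4b and Atp23, lay outside these subgroups, although Atp4a and Atp4b encode the gastric H,K-ATPase, itself a P-type pump. The Atp6 count includes Atp6ap1l and Atp6v1fnb, which carry the name of a V-ATPase gene without being a known subunit.

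The binding sites came from mouse epiblast stem cells, cultured pluripotent cells that resemble the epiblast after implantation, with an inducible Mixl1 gene. All 4 libraries came from embryoid bodies differentiated in serum for 2 days and exposed to 1 µg/mL doxycycline for the last 24 h, and before that the stem cells were kept on irradiated embryonic fibroblasts with activin A at 20 ng/mL and bFGF at 10 ng/mL. FLAG-MIXL1 was precipitated with an anti-FLAG antibody in 2 libraries, and 2 libraries were input chromatin. Cells without induction were not analysed here, and how many lines or clones were used is not known here. The data are 1 list of 9598 peaks for the whole series, of which 9332 lay on chromosomes 1 to 19. It gives positions only, so depth is unknown, replicates cannot be compared or given an error, and the cell type cannot be checked against marker genes. The members and the 50 kb limit were chosen with earlier results of these data known, so the counts below describe the list and no test was made of them.

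P-type pumps pass a phosphate from ATP onto their own catalytic chain while they move an ion or a lipid across a membrane. They include the Na,K-ATPase, the calcium pumps, the copper pumps and the P4 flippases, which turn phospholipids over between the leaflets of a membrane. The ATP synthase works the other way and makes ATP in the mitochondrion from a proton gradient, with a catalytic F1 head on a membrane-bound Fo ring. The V-ATPase is built on a like plan, with a V1 head that splits ATP and a V0 sector in the membrane that moves protons, and it acidifies lysosomes, endosomes and secretory vesicles.

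A MIXL1 peak lay within 50 kb of the span of 46 of the 79 genes (58.2%), against 39.0% of all protein-coding genes. The family was selected on these peaks within 50 kb, so nothing is read from this difference. By subgroup, 16 of 24 Atp6 genes (66.7%, 95% Wilson interval 46.7 to 82.0) had such a peak, 19 of 35 P-type pumps (54.3%, 38.2 to 69.5) and 9 of 17 ATP synthase genes (52.9%, 31.0 to 73.8). The intervals overlap and cover counting only, since genes are not replicates and their neighbourhoods can share peaks. No peak was near 33 members, 28 had 1 peak, 12 had 2, 5 had 3 and Atp6v1b2 had 4. Members with 3 or more peaks made up 7.59%, against 6.44% of all protein-coding genes.

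**Figure D1:**
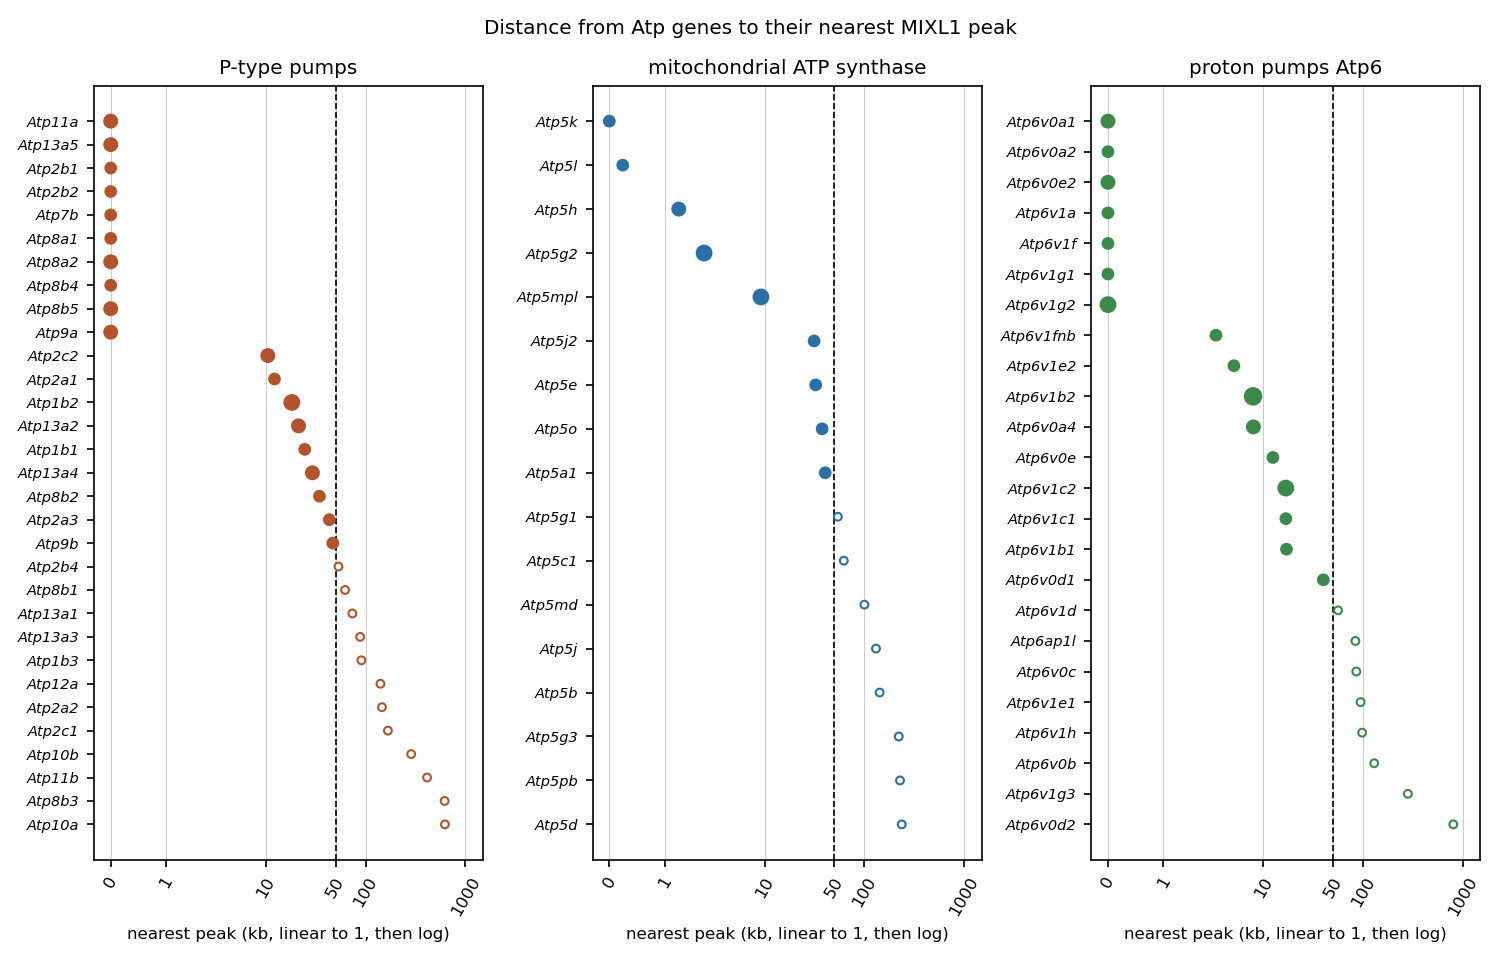
Each point is 1 gene of the 3 subgroups, placed by the distance in kb from its span to the nearest MIXL1 peak (axis linear up to 1 kb and logarithmic beyond), with the point size growing with the number of peaks within 50 kb. Filled points lie within 50 kb (dashed line), and they are 19 P-type pumps (31 of 35 are drawn), 9 of 17 ATP synthase genes and 16 of 24 Atp6 genes.

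Around the limit, the nearest peak lay at 40.1 kb from Atp6v0d1, 40.6 kb from Atp5a1, 43.2 kb from Atp2a3 and 46.8 kb from Atp9b, all just inside. Just outside were Atp2b4 at 53.4 kb, Atp5g1 at 54.3 kb and Atp6v1d at 56.3 kb. A limit of 40 or 60 kb would therefore change each subgroup's count by at most 2 genes.

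By count, and without a test, the subgroups differed in where the peaks lay. P-type pumps had their close peaks inside long genes, the ATP synthase had them beside short genes, and Atp6 genes had them both inside the span and close to it. A peak overlapped the span of 10 P-type pumps (28.6%), 1 ATP synthase gene (5.88%) and 7 Atp6 genes (29.2%), where 13.1% of all protein-coding genes had one. The ATP synthase value is not low for short genes. Among spans under 10 kb it was 1 of 15 (6.67%), against 2.84% of all genes of that class. Widening the search to 10 kb left the P-type count at 10, brought the ATP synthase to 5 and Atp6 to 11 (45.8%), and the background was 19.8%. At 20 kb the counts were 13, 5 and 15. Within 100 kb they were 26, 11 and 21, against 54.7% of all protein-coding genes.

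**Figure D2:**
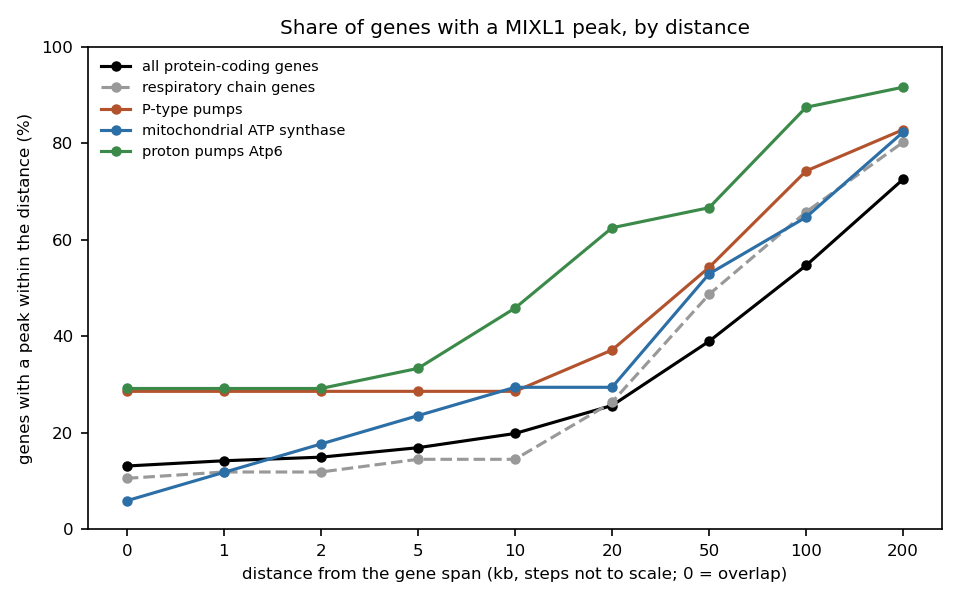
The lines give the percentage of genes with at least 1 MIXL1 peak within each distance of the gene span, from overlap (0 kb) to 200 kb, for the 3 subgroups, the respiratory chain genes and all protein-coding genes. The Atp6 line lies highest at every distance, but up to 2 kb it is at 29.2%, close to the P-type line. The P-type line stays at 28.6% from 0 to 10 kb, and the ATP synthase line starts lowest at 5.88%.

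Length moves with these counts, because a longer span has a longer search window. Median spans were 76.4 kb for P-type pumps, 7.13 kb for the ATP synthase and 22.6 kb for Atp6, against 17.6 kb for all protein-coding genes. Among genes with spans under 10 kb, 9 of 15 ATP synthase genes (95% Wilson interval 35.7 to 80.2%) and 6 of 8 Atp6 genes (40.9 to 92.9%) had a peak within 50 kb, and the background of that class was 30.0%. Peaks overlapped 5 of the 24 members of that class (Atp5k, Atp6v0e2, Atp6v1f, Atp6v1g1 and Atp6v1g2), against 2.84% of its genes. Spans of 10 to 50 kb gave 5 of 14 P-type pumps, 0 of 2 ATP synthase genes and 6 of 11 Atp6 genes, with a background of 39.1%, and a peak overlapped 0 of the 30 members there against 9.29% of genes. Spans of 50 to 100 kb gave 2 of 4 P-type pumps and 4 of 5 Atp6 genes (background 44.6%), and peaks overlapped 4 of these 9 members against 23.4%. The longest class, 100 kb and longer, held only P-type pumps, of which 11 of 16 (68.8%) had a peak within 50 kb against a background of 60.9%. For peaks overlapping the span in that class the values were 9 of 16 (56.3%) and 48.6%. The P-type shares thus lay close to those of other genes of like length, while more of the short ATP synthase and Atp6 genes had a peak than in their class as a whole, without a test of the difference.

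**Figure D3:**
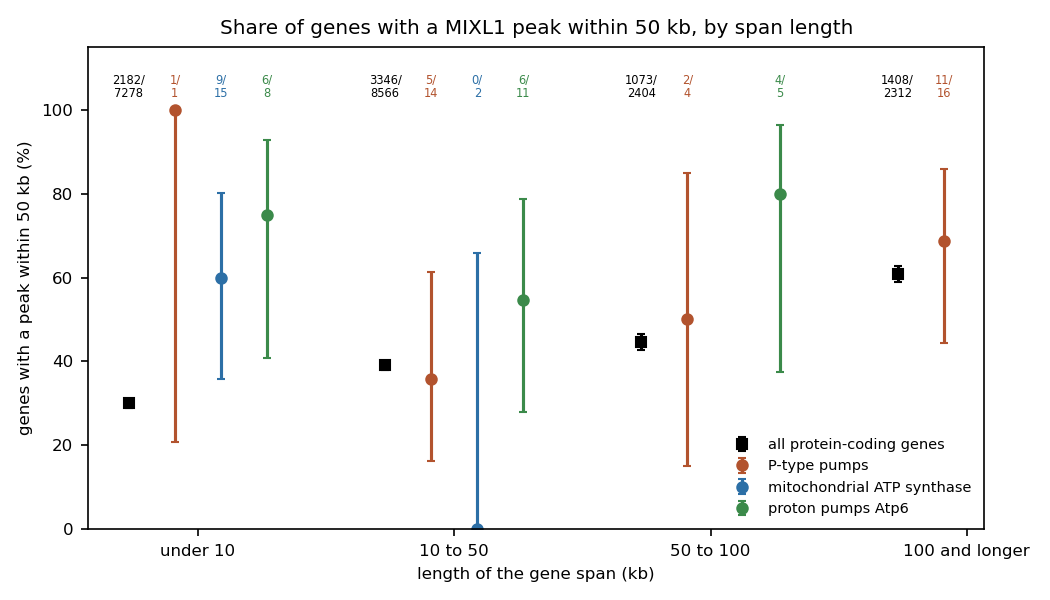
Points give the percentage of genes with a MIXL1 peak within 50 kb in 4 classes of span length, with 95% Wilson intervals as bars and the counts above. All protein-coding genes (squares) run from 30.0% in the shortest to 60.9% in the longest class, and the bars of the members are wide because a subgroup has at most 16 genes in a class.

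Peaks per Mb of window divide by the length searched and gave another order. They do not remove length, since among all protein-coding genes this density fell from 5.22 under 10 kb to 4.17 at 100 kb and longer. The windows of P-type pumps held 28 peaks in 6.86 Mb, or 4.08 per Mb (95% Poisson interval 2.71 to 5.90). Those of the ATP synthase held 14 peaks, or 7.65 per Mb (4.18 to 12.8), and those of Atp6 25 peaks, or 8.34 per Mb (5.39 to 12.3). All protein-coding genes together had 4.60 per Mb. P-type pumps were thus lowest by density and Atp6 genes highest, on the peaks that the rule itself used, and no test was made. Within classes of span, Atp6 genes had 10.9 per Mb (4.72 to 21.5) under 10 kb and 7.82 (3.90 to 13.99) at 10 to 50 kb. Both intervals include the value of their class, 5.22 and 5.21. ATP synthase genes under 10 kb had 8.81 (4.82 to 14.8), an interval that also includes 5.22. P-type pumps had 3.56 at 10 to 50 kb, 4.29 at 50 to 100 kb and 3.66 at 100 kb and longer. All genes of these classes had 5.21, 4.74 and 4.17, and the 1 P-type pump under 10 kb had 28.2. Of the 25 Atp6 peaks, 6 stood in 1-Mb windows of 20 or more peaks, and they were those of Atp6v1c2 and Atp6v1g2. The intervals treat peaks as independent, and since peaks cluster they are too narrow.

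Start sites were compared next, using the start positions of the RefSeq promoter table, which had an entry for 57 of the 79 members. A peak lay within 1 kb of a listed start of 7 of these 57 genes (12.3%), against 3.26% of protein-coding genes with an entry. By subgroup they were 4 of 17 Atp6 genes (Atp6v0a1, Atp6v1a, Atp6v1f and Atp6v1g2), 2 of 15 ATP synthase genes (Atp5k and Atp5l) and 1 of 23 P-type pumps (Atp8a1). Peaks at gene starts were therefore mostly those of the proton pump and the small ATP synthase subunits.

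**Figure D4:**
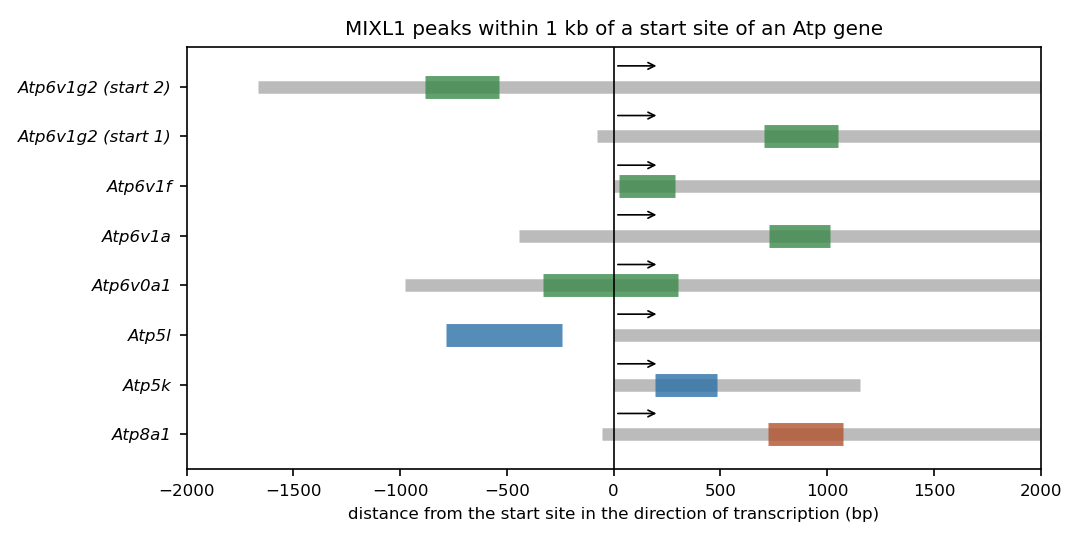
Peaks (coloured bars) within 1 kb of a start site of a member, drawn in bp from that start in the direction of transcription (arrows), with the gene span in grey, cut at 2000 bp. The peak of Atp6v0a1 covers the start, that of Atp5l lies before it, and Atp6v1g2 is drawn once for each of its 2 listed starts.

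Atp6v0a1, which encodes an isoform of the large membrane subunit a of V0, had the only peak that covered a member's listed start. The peak, chr11:101010065-101010699 (mm10), ran from 333 bp before the start at 101010398 to 301 bp after it and contained the whole 300-base promoter window. The span of the gene begins 976 bp before this start, so a longer transcript may begin elsewhere. Atp6v1f encodes the F subunit of the V1 stalk. Its peak (chr6:29467808-29468071) began 25 bp after the start and ended 288 bp after it. Atp5l encodes subunit g of the ATP synthase membrane part, and its peak (chr9:44920984-44921526) lay upstream, from 784 to 242 bp before the start. These were the 3 members with an entry whose own promoter window overlapped a peak, by 300, 25 and 9 bases.

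The 250 bases before these 3 starts are printed 5′ to 3′ on the gene's strand, from RefSeq, GRCm38.p6 (the assembly that mm10 denotes), because they are the member promoters that MIXL1 peaks reached. Capitals mark TAAT or its reverse complement ATTA, the core that homeodomains of the paired type are known to bind. They are chr11:101010148-101010397 on the plus strand for Atp6v0a1, chr6:29467533-29467782 on the plus strand for Atp6v1f, and chr9:44920743-44920992 on the minus strand for Atp5l.
Atp6v0a1: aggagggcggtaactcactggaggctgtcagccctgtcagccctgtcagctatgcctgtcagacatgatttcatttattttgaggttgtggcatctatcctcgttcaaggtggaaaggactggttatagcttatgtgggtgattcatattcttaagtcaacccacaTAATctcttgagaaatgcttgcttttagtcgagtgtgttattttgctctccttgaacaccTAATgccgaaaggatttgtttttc
Atp6v1f: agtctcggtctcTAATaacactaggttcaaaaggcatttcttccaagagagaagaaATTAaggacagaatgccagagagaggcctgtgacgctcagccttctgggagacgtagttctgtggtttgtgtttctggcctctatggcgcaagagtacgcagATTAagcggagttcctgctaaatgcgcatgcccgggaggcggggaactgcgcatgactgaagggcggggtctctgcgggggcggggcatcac
Atp5l: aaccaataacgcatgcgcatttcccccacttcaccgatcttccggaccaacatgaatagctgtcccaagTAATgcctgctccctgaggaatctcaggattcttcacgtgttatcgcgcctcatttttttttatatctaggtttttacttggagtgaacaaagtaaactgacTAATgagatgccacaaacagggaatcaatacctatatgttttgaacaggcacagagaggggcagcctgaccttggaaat
All 250 bases of Atp6v0a1 lay in the peak, with 2 cores, at 84 to 81 and at 24 to 21 bases before the start. Atp6v1f had 3 cores before its start and Atp5l had 2, none of them within a peak. Atp6v0a1 and Atp5l had a GC content of 43.6% and 44.0% in these 250 bases, and Atp6v1f had 54.4%.

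The core is short and common, so its presence says little by itself. It was searched on both strands as TAAT and ATTA, overlaps counted. Of 20085 promoter windows of 300 bases of all protein-coding genes, 51.5% held at least 1, and so did 31 of the 73 windows of members (42.5%). Windows that overlapped a peak held it in 71.7% of 283 cases, but their median GC content was also lower, 51.7% against 57.0% over all windows. The palindromes TAATNNATTA and TAATNNNATTA occurred in 0 of the 73 member windows and in 0.324% and 0.383% of all windows. At such low shares their absence from 73 windows says little. In the 283 windows that overlapped a peak they stood at 0 and 1.77%.

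Atp6v1a and Atp6v1g2 had their peaks a little further from the start. Atp6v1a encodes the catalytic A subunit of V1, and its peak (chr16:44138244-44138532) lay 727 to 1015 bp after the start. Atp6v1g2, an isoform of the G stalk subunit found mainly in neurons, had 3 peaks within 50 kb. One of them (chr17:35235713-35236059) lay between the 2 listed starts, 703 bp after the first and 537 bp before the second, and it also overlapped the neighbouring gene Nfkbil1 and its promoter window. The others lay 48.8 kb upstream, inside Lst1, and 31.1 kb downstream. All 3 stood in a 1-Mb window of 20 or more peaks. Atp6v1g1, the widely expressed G isoform, had a peak of 245 bp (chr4:63544988-63545232) that began 223 bp inside the lower edge of its span. Its start was not listed, so which end of the gene this is was not determined.

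Among the other V1 genes, Atp6v1b2 had the most peaks of any member. This B subunit gene had a peak of 1714 bp (chr8:69121638-69123351) at 7.92 kb, for which it was the nearest gene. The others lay at 28.6 and 35.2 kb, both inside Lzts1, and at 38.9 kb, inside Slc18a1. Atp6v1c2, a C subunit isoform on chromosome 12, had 3 peaks at 16.9, 34.7 and 45.5 kb downstream, the closest of them in Pdia6, in another 1-Mb window of 20 or more peaks. On that chromosome 76.5% of protein-coding genes had a peak within 50 kb. Atp6v1c1 had a wide peak of 1680 bp at 16.9 kb, Atp6v1b1 had 1 at 17.1 kb inside Tex261, and Atp6v1e2, the E isoform of testis, had 1 of 242 bp at 5.09 kb. In all, 9 of 13 V1 genes (69.2%) had a peak within 50 kb, against 39.0% of all protein-coding genes. Atp6v1d, Atp6v1e1, Atp6v1g3 and Atp6v1h had none.

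V0 genes gave 6 of 9 (66.7%), against 39.0% of all protein-coding genes. Apart from Atp6v0a1, a peak overlapped Atp6v0a2, another a isoform (chr5:124709813-124710578, 766 bp), and Atp6v0e2, a small e subunit. The Atp6v0e2 peak (chr6:48541679-48542224) straddled the end of the gene, with its centre 4.38 kb after the start. A further peak lay 11.1 kb downstream, nearer to Lrrc61. Atp6v0a4, the a isoform of kidney, had peaks at 7.98 kb downstream, inside Svopl, and 20.7 kb upstream, inside D630045J12Rik. Atp6v0e had 1 peak 12.5 kb upstream, nearer to Ergic1, and Atp6v0d1 had 1 at 40.1 kb, inside Zdhhc1. The genes of the proton-carrying ring, Atp6v0b and Atp6v0c, had no peak within 50 kb, and neither had Atp6v0d2. Of the 2 genes that are not subunits, Atp6v1fnb lay next to Atp6v1f and shared its peak, 3.37 kb away, and Atp6ap1l had none.

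Of the ATP synthase genes, those of the small membrane and accessory subunits had a peak within 50 kb in 4 of 5 cases. The background was 39.0% of all protein-coding genes and 30.0% of those under 10 kb. On only 5 genes the Wilson interval was wide, 37.6 to 96.4%, and no test was made. Among these genes Atp5mpl lies on chromosome 12, where 76.5% of protein-coding genes had a peak within 50 kb. Atp5k, which encodes subunit e, was the only ATP synthase gene with a peak inside its span. This peak (chr5:108433915-108434205) lay 194 to 484 bp after the start of a gene 1.15 kb long. Atp5mpl, a small proteolipid gene on chromosome 12, had 3 peaks (chr12:111938797-111939235, chr12:111976214-111977703 and chr12:112001145-112001560), at 22.1, 9.21 and 34.1 kb, and the last pair lay inside Tdrd9. Atp5j2 had 1 peak 31.4 kb upstream, nearer to Zkscan5, and Atp5md had none.

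In the rest of the synthase, 5 of 12 genes had a peak within 50 kb, against 39.0% of all protein-coding genes and 30.0% of those under 10 kb. The c-ring gene Atp5g2 had 3 peaks upstream, at 2.48 kb (chr15:102673525-102673871), 14.9 kb (chr15:102685941-102686254) and 20.8 kb (chr15:102691839-102692711), and it was the nearest gene to the first 2 of these. The other c-ring genes, Atp5g1 and Atp5g3, had none within 50 kb, although all 3 are known to encode the same mature protein. In the peripheral stalk, Atp5h had peaks 1.38 kb downstream, nearer to Mrpl58, and 47.3 kb upstream, inside Slc16a5. Atp5o had 1 at 37.8 kb upstream, and Atp5j and Atp5pb had none. For the F1 head and central stalk, Atp5a1 had 1 peak at 40.6 kb, nearer to 8030462N17Rik, and Atp5e had 1 at 32.6 kb, inside Ctsz. The catalytic beta subunit gene Atp5b had its nearest peak at 142 kb, and Atp5c1 and Atp5d had none within 50 kb either. Each sector was therefore split between genes with and without a peak.

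Among P-type pumps, the P4 flippases and the plasma membrane calcium pumps held most of the peaks inside genes. A peak overlapped 6 of 13 P4 genes (46.2%), and 8 of 13 (61.5%) had one within 50 kb. Their median span was 132 kb, and these shares lay close to the 48.6% and 60.9% of all genes of 100 kb and longer. Atp8a1, a flippase of phosphatidylserine, had its peak (chr5:67846357-67846708) 723 to 1074 bp after the start of a span of 229 kb. Atp8a2, the brain paralog and the longest member at 439 kb, had 2 peaks inside the gene (chr14:59736814-59737615 and chr14:59759105-59759500). Atp11a also had 2 (chr8:12785971-12786311 and chr8:12819936-12820765), with centres 29.1 and 63.3 kb after the start. Atp8b4 had 1 with its centre 165 kb after the start (chr2:126326062-126326397), and Atp8b5 had 1 at 67.8 kb (chr4:43334820-43335133) and another 24.9 kb downstream, in Rusc2. The Atp9a peak (chr2:168707950-168708233) lay 4.87 kb after the nearest of its 4 listed starts, with a second peak 20.1 kb upstream inside Sall4. Atp9b had 1 peak at 46.8 kb, inside Sall3, and Atp8b2 had 1 at 34.4 kb, reaching a promoter window of Hax1. Apart from Atp8a1, the peaks inside P4 genes with a listed start lay 4.87 to 165 kb from it.

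Of the 8 calcium pump genes, 2 had a peak inside the span, and both are plasma membrane pumps. Both have spans over 100 kb, a class in which 48.6% of protein-coding genes had one. Atp2b1 had the widest peak of any member, 1717 bp (chr10:98952505-98954221), centred 38.2 kb after the nearest listed start. Atp2b2, whose loss deafens mice, had 1 peak (chr6:113852222-113852821) centred 39.0 kb after the nearest start, and Atp2b4 had none within 50 kb. The SERCA pumps fill the calcium store of the endoplasmic reticulum. Atp2a1 had 1 peak 12.2 kb upstream, reaching the promoter window of Sh2b1, and Atp2a3 had 1 at 43.2 kb in Camkk1, while Atp2a2, the form of heart and most other tissues, had its nearest at 146 kb. Of the Golgi pumps, Atp2c2 had 2 peaks at 10.5 and 12.3 kb, both nearer to Wfdc1, and Atp2c1 had none. The copper pump gene Atp7b had 1 peak inside the span (chr8:21995288-21995806), centred 64.5 kb after the start.

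The Na,K-ATPase keeps the sodium and potassium gradients of the cell. Of its 3 beta genes, which encode the glycoprotein partner of the catalytic chain, Atp1b1 had 1 peak 24.5 kb upstream for which it was the nearest gene, and Atp1b3 had none. Atp1b2 had 3, of which 2 lay at 18.2 and 18.9 kb by the starts of Trp53 and Wrap53 (chr11:69581242-69581544 and chr11:69580130-69580853) and 1 at 47.5 kb (chr11:69653440-69653798). The non-gastric H,K-ATPase gene Atp12a had no peak, Atp4a had 1 at 4.70 kb, inside Gapdhs, Atp4b had none, and Atp23, which encodes a protease named for ATP synthase assembly, had 1 at 22.0 kb.

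P5 pumps, which include the lysosomal polyamine transporter Atp13a2, gave 3 of 5 with a peak within 50 kb, against 39.0% of all protein-coding genes. Atp13a5 had 2 peaks in its span (chr16:29276275-29276670 and chr16:29359502-29359858), and its neighbour Atp13a4 shared the second at 29.2 kb and had another at 38.3 kb inside Opa1. Atp13a2 had 2 upstream at 21.2 and 28.1 kb. The nearest gene to both was Sdhb, a respiratory chain gene, and the first lay inside it. Atp13a1 and Atp13a3 had none.

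Many of these peaks lay closer to another gene. The 46 genes drew on 69 distinct peaks, 2 of which were near 2 members. Of the 69, 21 overlapped a member, 26 overlapped another protein-coding gene only and 22 overlapped none. A member was the nearest protein-coding gene for 31. A member's start lay within 1 kb of 7 peaks, and 7 others lay within 1 kb of the start of another gene only. Their widths were like those of the list, with a median of 441 bp (quartiles 343 and 685) against 485 bp (350 and 725) for all peaks on chromosomes 1 to 19. The 7 peaks at members' starts had a median of 347 bp, from 264 to 635 bp. Peaks of 1 kb or more made up 9 of the 69 and 12.4% of all, and none of them lay at a member's start.

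Genes that work with these complexes were counted in the same way, beside the 39.0% of all protein-coding genes within 50 kb, 13.1% overlapping and 3.26% at starts. The 76 respiratory chain genes and their Ndufaf assembly factors, which feed the proton gradient that the ATP synthase uses, had a peak within 50 kb in 37 cases (48.7%), overlapping the span in 8 (10.5%) and within 1 kb of a listed start in 3 of 60 (5.0%). The median span of this list was 7.58 kb. Of all protein-coding genes under 10 kb, 30.0% had a peak within 50 kb, 2.84% one overlapping the span and 2.52% one at a start. Respiratory genes with peaks inside the span included Ndufa4l2 (3, with 4 within 50 kb), Cox6b1, Cox7c, Ndufaf1, Ndufaf2, Ndufs4 and Sdhb. The ATP synthase share within 50 kb, 52.9%, was close to that of the respiratory chain. Nearer the genes the shares were less alike, on few genes and without a test. Within 10 kb they were 5 of 17 (29.4%) and 11 of 76 (14.5%), against 19.8% of all genes and 10.6% of those under 10 kb. The peaks that count Atp5h and Atp5mpl within 10 kb were nearer to Mrpl58 and Tdrd9. At starts they were 2 of 15 (13.3%) and 3 of 60 (5.0%). Of 9 ATP synthase partners found, 4 (44.4%) had a peak within 50 kb, led by Dmac2l with 4, on chromosome 12, and the assembly gene Tmem70 with 3. Proton pump partners gave 8 of 15 (53.3%), with Tfeb, the transcription factor of lysosomal genes, at 3, Ncoa7 and Ccdc115 at 2 each, and peaks inside the span of Tfeb, Ncoa7, Oxr1 and Wdr7. P-type partners gave 5 of 19 (26.3%), with a Wilson interval of 11.8 to 48.8% that includes the 39.0% of all genes. Their median span was 10.6 kb, and the background was 30.0% under 10 kb and 39.1% at 10 to 50 kb. Fxyd1, Fxyd3, Fxyd5 and Fxyd7 lie side by side on chromosome 7 and had no peak within 50 kb. No deficit is therefore read from this share. Fxyd4 and Tmem30b had 2 peaks each, and Nkain3 had 1 inside its span. Tmem30b lies on chromosome 12 and encodes a flippase chaperone.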

How the data were processed

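The authors deposited 1 list of peak positions for the 4 libraries, giving chromosome, start and end. The tools named, per the submitters' processing notes, are MACS2, Bowtie2, SAMtools and CASAVA 1.8.2, on mm10. How the input was used, whether replicates were pooled, and the threshold and filters of the peak list are unknown here. Members and lists were chosen with earlier results of these data known.

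Peaks were set against the RefSeq gene table of GRCm38.p6. Genes starting in the first 3 Mb of a chromosome were left out, since the table may also place genes of unplaced scaffolds there (105 protein-coding genes, no member). Distance runs from the nearest edge of a peak to the gene span, and any overlap counts as 0. Positions are 1-based. Start sites and sequences came from the RefSeq promoter table (250 bases before to 50 after each start). The genome was not used here, so sequences of other peaks were not read. Members with a peak within 50 kb could be named. Positions were given for those with a peak inside the span or at least 3 peaks. Some genes that this rule takes are left unnamed. Counting was checked on simulated peaks. Python 3.11.15, numpy 2.4.6, pandas 2.3.3, scipy 1.17.1 and matplotlib 3.10.9 were used.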

Additional observations from a re-analysis of the deposited data

Results flagged for a closer look

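Unplaced or unlocalised sequence (16 contigs) held 195 peaks, 2.03% of the list. They enter none of the counts above, because the members were taken from chromosomes 1 to 19.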

How the results depend on the processing

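Each of the 4 counts (all members, P-type, ATP synthase, Atp6; 46, 19, 9 and 16) was recomputed under 10 alternatives, and 26 of the 40 values stayed within 1.5 times. The others follow from smaller windows or fewer peaks. At 10 kb the counts were 27, 10 and 5 for all members, P-type and ATP synthase, and with overlap of the span alone they were 18, 10, 1 and 7. With the wider 50% of the peaks they were 27 in all, 11 P-type and 8 Atp6, and with each peak given to its nearest gene alone 27, 11, 5 and 10. All protein-coding genes then stood at 19.8, 13.1, 22.0 and 20.5%. The order of the subgroups was not stable: with the wider peaks the ATP synthase had the highest share (41.2%), then Atp6 (33.3%) and P-type pumps (31.4%). Counting by peak centre or by whole peaks, or keeping genes of the first 3 Mb, changed no count. Without chromosome 12 there were 44 of 76 members, and 44 of 79 once peaks of 1-Mb windows with at least 20 were dropped. No paired analysis was possible because the libraries share 1 peak list with no value per replicate. Leaving out a replicate was not possible for the same reason, and the depth behind a missing peak is unknown.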

Other observations

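The family has 6 further protein-coding genes on chromosome X, where 72 of 963 protein-coding genes (7.48%) had a peak within 50 kb. Atp6ap2, which encodes a V-ATPase accessory protein also known as the prorenin receptor, had 1 peak, 2.78 kb from its span. Atp1b4, Atp2b3, Atp6ap1 and Atp7a had none within 50 kb, and their nearest peaks lay 136 to 1158 kb away. Of 12 entries of the family on chromosomes 1 to 19 that are not protein-coding, 3 had a peak within 50 kb: Atp10d, a P4 gene listed as a transcribed pseudogene, and the pseudogenes Atp5k-ps2 and Atp5l2-ps, with 1, 1 and 2 peaks. Among protein-coding genes the share within 50 kb was 39.0%, and 30.0% under 10 kb. It was not counted over all entries that are not protein-coding. No peak overlapped any of the 12.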
